A study of Mus musculus with 6 samples.

Results

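Blood vessel markers were examined in mouse striatum, the part of the forebrain most affected in Huntington's disease. The 10 genes were chosen as textbook markers of endothelial cells (Cldn5, Pecam1, Flt1, Kdr, Tek, Cdh5 and Esam) and of mural cells (Pdgfrb, Acta2 and Tagln), and every probe set whose annotation names exactly 1 of them was taken. This gave 10 probe sets for 9 genes, out of 12422 probe sets and 8251 genes on the array, and Esam was not measured. RNA came from 3 Hdh4/Q80 mice (replicates 7, 8 and 9) and 3 wild-type littermates (replicates 4, 5 and 6), each hybridised to its own array. All 6 mice were female C57BL/6 animals of 12 months by the labels. Hdh4/Q80 mice, called transgenic in the labels, have a lengthened CAG repeat in their own huntingtin gene, so the mutation is not limited to neurons. The labels do not state their zygosity. Values are log2 expression per probe set after robust multi-array average (RMA), which removes background, brings the arrays to a common distribution and combines the probes of each set into 1 value. A difference of 1 on this scale is a 2-fold change, and differences are Hdh4/Q80 minus wild type.

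Endothelial cells line the vessels and, in brain, seal them with tight junctions to form the blood-brain barrier. Pericytes and smooth muscle cells, together called mural cells, wrap the endothelial tube, steady it and set its calibre. Vascular endothelial growth factor and angiopoietin signal to the endothelium through Flt1, Kdr and Tek, while platelet-derived growth factor B from the endothelium holds pericytes through Pdgfrb. The comparison asks whether the transcripts of these cells differ in level between mutant and wild-type striatum.

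Array medians lay between 7.10 and 7.13. Hdh4/Q80 replicate 8 correlated least with the other arrays across probe sets (mean r = 0.992, against 0.995 to 0.997 for the remaining arrays). Drd2, a dopamine receptor of striatal projection neurons, lay between 9.52 and 9.88 in Hdh4/Q80 mice and between 9.61 and 9.90 in wild types. It was picked after its values were seen. With no other tissue on these arrays, it cannot test the tissue label. The vessel wall is a small part of the tissue, and in whole striatum fewer cells of a type and less RNA per cell cannot be told apart. No detection calls were used, so no marker could be called absent. Tek lay below the lower quartile of every array (5.79 to 5.86), a range in which RMA shrinks differences.

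No vessel marker passed limma's moderated test of the mutants against their littermates. Of the 10 probe sets 0 reached an adjusted p under 0.05, against 0% of all 12422 probe sets, and 0 reached an unadjusted p under 0.05, against 5.10% of all. Their adjusted p-values ran from 0.857 to 0.996 with Benjamini-Hochberg adjustment over the whole array. Of the 7 endothelial probe sets 6 had a difference above 0 and 1, for Cldn5, below it. All 3 mural probe sets lay below 0. The median difference was 0.024 for the endothelial and -0.053 for the mural probe sets, beside -0.0027 over all probe sets. The median absolute difference of the markers was 0.056, and that of all probe sets was 0.07. For all 10 probe sets the 95% interval of the difference lay inside a 1.5-fold change, higher or lower. For 8 of them (not Cldn5 and Pecam1) it lay inside 1.2-fold. These limits refer to the array scale, on which RMA understates fold changes.

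**Figure D1:**
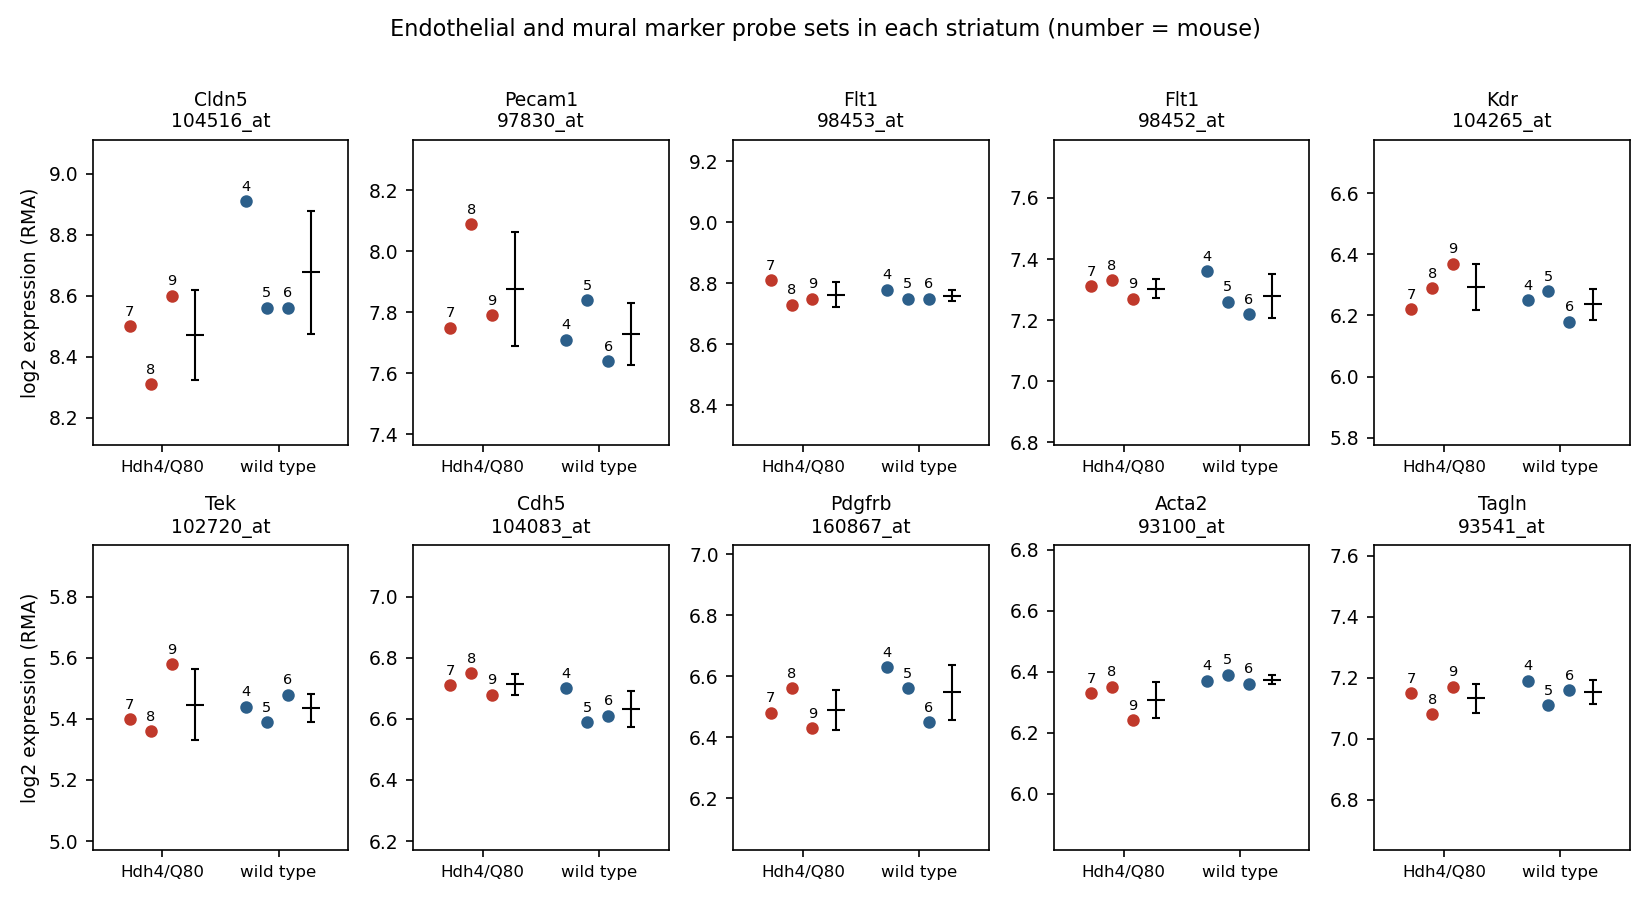
Log2 expression of each marker probe set in each mouse (red, Hdh4/Q80; blue, wild type; the number is the replicate), with the group mean and SD (n = 3) as a black bar. Every panel spans 1.0 log2 unit, so scatter can be compared by eye: Cldn5 (range 0.60 over the 6 mice) and Pecam1 (0.45) scatter most, and the brighter Flt1 probe set least (0.08).

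The promoter windows of Cldn5, Flt1 and Kdr are shown because Cldn5 had the largest difference among the markers. Flt1 and Kdr, receptors of vascular endothelial growth factor, stayed close to 0. Each runs from 250 bases before the start of a RefSeq transcript to 50 bases from it (mouse build GRCm38.p6). Cldn5 lies at chr16:18776597-18776896 on the + strand, Flt1 at chr5:147725962-147726261 on the - strand and Kdr at chr5:75978406-75978705 on the - strand. Capitals mark 4 motifs on either strand, a TATA box (TATAAA), a GC box (GGGCGG) and the ETS-type motifs AGGAAG and CCGGAA. ETS transcription factors are known activators of endothelial genes.
Cldn5: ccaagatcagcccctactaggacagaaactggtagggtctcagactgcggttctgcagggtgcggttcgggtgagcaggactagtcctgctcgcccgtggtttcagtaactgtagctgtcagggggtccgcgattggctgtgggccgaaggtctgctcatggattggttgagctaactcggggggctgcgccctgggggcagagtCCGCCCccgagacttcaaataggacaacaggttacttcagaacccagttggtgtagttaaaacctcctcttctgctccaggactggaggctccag
Flt1: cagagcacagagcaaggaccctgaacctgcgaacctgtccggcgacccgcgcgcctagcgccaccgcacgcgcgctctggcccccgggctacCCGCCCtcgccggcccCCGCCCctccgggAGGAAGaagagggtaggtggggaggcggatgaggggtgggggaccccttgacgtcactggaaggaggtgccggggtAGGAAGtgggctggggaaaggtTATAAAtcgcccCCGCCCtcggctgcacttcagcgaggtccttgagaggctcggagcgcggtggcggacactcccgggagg
Kdr: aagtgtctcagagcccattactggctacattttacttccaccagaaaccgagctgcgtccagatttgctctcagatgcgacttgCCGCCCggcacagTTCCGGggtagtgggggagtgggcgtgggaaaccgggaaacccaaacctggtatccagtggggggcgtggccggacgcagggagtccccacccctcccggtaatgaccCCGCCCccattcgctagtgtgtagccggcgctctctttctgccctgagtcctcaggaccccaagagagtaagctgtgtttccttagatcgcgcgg
The Flt1 window held a TATA box 31 bases before the start, a pair of AGGAAG motifs and 3 GC boxes. The Kdr window held 1 CCGGAA motif and 2 GC boxes, and the Cldn5 window 1 GC box. Across all 32851 promoter windows of the table, 13.6% held the TATA box, 35.7% the GC box, 35.4% AGGAAG and 14.9% CCGGAA on either strand. A match is a description of the letters, and the arrays did not measure binding. Of the 10 markers 5 had a window in the table.

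Cldn5, the principal claudin of brain endothelial tight junctions, had the largest difference among the markers. It read 8.50, 8.31 and 8.60 in Hdh4/Q80 replicates 7, 8 and 9, against 8.91, 8.56 and 8.56 in wild-type replicates 4, 5 and 6. Wild-type replicate 4 was the highest and Hdh4/Q80 replicate 8 the lowest of the 6, and the groups overlapped, with Hdh4/Q80 replicate 9 above the 2 lower wild types. The difference was -0.21 ± 0.111 (SE, n = 3 mice each), 1.16-fold lower in the mutants, with a 95% interval of -0.46 to 0.04 (limma adjusted p = 0.857). Across the array 5.15% of probe sets had a larger absolute difference. The value became -0.09 without wild-type replicate 4 and -0.13 without Hdh4/Q80 replicate 8.

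Pecam1, the platelet and endothelial adhesion molecule CD31, had the largest difference in the other direction. It read 7.75, 8.09 and 7.79 in the Hdh4/Q80 mice and 7.71, 7.84 and 7.64 in the wild types. Hdh4/Q80 replicate 8 stood above all others, while replicates 7 and 9 lay inside the wild-type range. The difference was 0.15 ± 0.101 (SE), with an interval of -0.08 to 0.37. It became 0.04 without Hdh4/Q80 replicate 8 and 0.21 without Hdh4/Q80 replicate 7. Cldn5 and Pecam1, markers of the same cell type, thus had opposite signs, and Hdh4/Q80 replicate 8 had the lowest value of one and the highest of the other.

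Cdh5, or VE-cadherin, joins endothelial cells at adherens junctions. Its values were 6.71, 6.75 and 6.68 in Hdh4/Q80 mice, against 6.70, 6.59 and 6.61 in wild types. The mutants lay at or near the top of the range, with wild-type replicate 4 among them, and the difference was 0.08 with an interval of -0.07 to 0.23.

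The growth factor receptors among the markers, Flt1, Kdr and Tek, had differences near 0. Flt1, which encodes VEGF receptor 1, had 2 probe sets. The brighter read 8.81, 8.73 and 8.75 in Hdh4/Q80 mice and 8.78, 8.75 and 8.75 in wild types, all 6 mice within 0.08. Its difference of 0.00 had an interval of -0.14 to 0.15, so a change above 1.11-fold in either direction lay outside it. The other Flt1 probe set read 7.31, 7.33 and 7.27 in Hdh4/Q80 mice and 7.36, 7.26 and 7.22 in wild types, a difference of 0.02 (interval -0.13 to 0.18). Both probe sets of this gene therefore had differences near 0, with overlapping groups.

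Kdr, VEGF receptor 2, carries most of the growth signal of VEGF-A in endothelium. It read 6.22, 6.29 and 6.37 in Hdh4/Q80 mice against 6.25, 6.28 and 6.18 in wild types. Hdh4/Q80 replicate 9 was the highest and wild-type replicate 6 the lowest. The difference of 0.06 (interval -0.10 to 0.22) became 0.02 without Hdh4/Q80 replicate 9 and 0.095 without Hdh4/Q80 replicate 7. Tek, the angiopoietin receptor TIE2, read 5.40, 5.36 and 5.58 in Hdh4/Q80 mice and 5.44, 5.39 and 5.48 in wild types. The difference was 0.01 (interval -0.17 to 0.18), a weak limit for a probe set this dim, and its sign turned after quantile normalization (-0.027) and cyclic loess (-0.022) and without Hdh4/Q80 replicate 9 (-0.06).

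Mural markers had small negative differences. Acta2, smooth muscle alpha-actin, read 6.33, 6.35 and 6.24 in Hdh4/Q80 mice against 6.37, 6.39 and 6.36 in wild types. It was the only one of the 10 marker probe sets whose groups did not overlap, with the mutants below by a gap of 0.009, whereas the mutants lay wholly below for 5.05% of all probe sets and wholly to one side for 11.7%. The difference was -0.07 ± 0.067 (SE), with an interval of -0.22 to 0.08 (limma adjusted p = 0.875). It became -0.03 without Hdh4/Q80 replicate 9 and -0.086 without Hdh4/Q80 replicate 8. Actins are nearly alike in sequence, and whether this probe set tells smooth muscle alpha-actin from its relatives was not tested.

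Pdgfrb, the receptor that keeps pericytes on the vessel, read 6.48, 6.56 and 6.43 in Hdh4/Q80 mice and 6.63, 6.56 and 6.45 in wild types. Its groups overlapped, and the difference of -0.05 (interval -0.22 to 0.11) was -0.09 when Hdh4/Q80 replicate 8 was left out, -0.02 when replicate 9 was, -0.01 when wild-type replicate 4 was and -0.10 when replicate 6 was. Tagln, or SM22, an actin-binding protein of smooth muscle, read 7.15, 7.08 and 7.17 in Hdh4/Q80 mice and 7.19, 7.11 and 7.16 in wild types. Its difference was -0.02 (interval -0.17 to 0.13), and the 6 values lay within 0.11. The sign turned with array weights (0.002) and on leaving out either wild-type replicate 4 (0.002) or Hdh4/Q80 replicate 8 (0.012).

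Averaged over its genes, the deviation of each mouse from the 6-mouse mean was small for both kinds of marker. The 6 endothelial genes gave -0.022, 0.003 and 0.042 in Hdh4/Q80 replicates 7, 8 and 9, against 0.046, -0.019 and -0.048 in wild-type replicates 4, 5 and 6. The groups overlapped, with means of 0.007 ± 0.0322 in the mutants and -0.007 ± 0.0479 in the wild types (SD, n = 3). The 3 mural genes gave -0.011, -0.005 and -0.052 in Hdh4/Q80 mice and 0.061, 0.017 and -0.010 in wild types, with means of -0.022 ± 0.0255 and 0.022 ± 0.0358. Wild-type replicate 4 was the highest mouse for both. Among the 6 endothelial genes, each on its brightest probe set, it was the highest for Cldn5 alone (8.91, against 8.31 to 8.60 in the other mice). Leaving this mouse out took the median difference of the mural probe sets to -0.012 and that of the endothelial ones to 0.066.

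**Figure D2:**
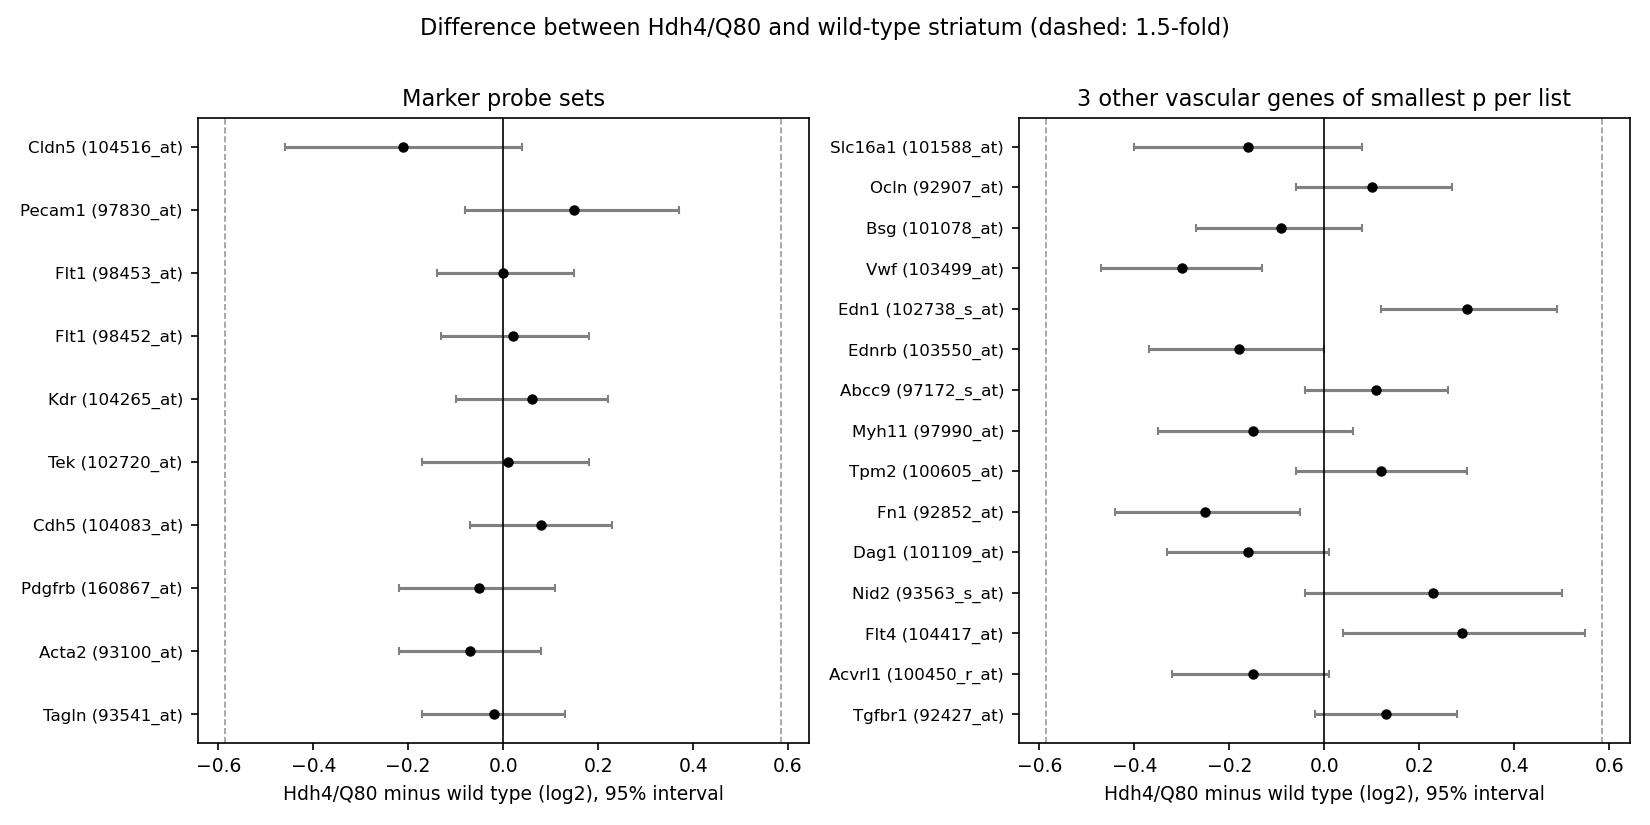
Difference between Hdh4/Q80 and wild-type striatum (log2, points) with limma's 95% interval (bars) for the 10 marker probe sets on the left and the 3 genes of smallest p in each of 5 further vascular lists on the right. Dashed lines mark a 1.5-fold change, and all plotted intervals lie inside them.

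Further genes of the vessel wall were taken from 5 lists, of barrier and transport, other endothelial, other mural, vessel growth and basement membrane genes. Of 133 listed genes 109 were measured, each on its brightest probe set, and 0 passed the adjusted test, against 0% of all genes. An unadjusted p under 0.05 was found for 5 of them, 2 higher and 3 lower in the mutants. That is 4.59%, close to the 4.30% of all 8251 genes. The groups did not overlap for 12 of the 109 genes, beside 11.1% of all genes. The difference was above 0 for 56 genes and below it for 53, with a median of 0.006, and the interval lay within 1.5-fold for all 109. The 5 were Vwf, Edn1, Ednrb, Flt4 and Fn1.

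Vwf, von Willebrand factor, which endothelium stores and releases for clotting, had the smallest p among the 109. Its brighter probe set read 7.37, 7.16 and 7.18 in Hdh4/Q80 mice against 7.58, 7.50 and 7.52 in wild types. All 3 mutants lay below all 3 wild types, by a gap of 0.138, and the difference was -0.30 ± 0.0778 (SE; limma unadjusted p = 0.00327, adjusted p = 0.857), from -0.37 to -0.26 with 1 mouse left out. The other Vwf probe set read 7.27, 7.18 and 7.23 in Hdh4/Q80 mice and 7.22, 7.26 and 7.33 in wild types, with overlapping groups and a difference of -0.04 (interval -0.19 to 0.11). The probe sets of this gene therefore did not give the same size of difference.

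Edn1, the precursor of the vasoconstrictor endothelin-1, had the largest positive difference. The brighter probe set, of the _s_at kind that can bind related transcripts, read 8.26, 8.55 and 8.42 in Hdh4/Q80 mice and 8.08, 8.12 and 8.12 in wild types. The groups did not overlap, and the difference was 0.30 ± 0.0835 (SE; limma unadjusted p = 0.00476, adjusted p = 0.857), from 0.23 to 0.38 with 1 mouse left out. The dimmer Edn1 probe set, below the lower quartile of every array, read 5.42, 5.58 and 5.42 in Hdh4/Q80 mice and 5.35, 5.33 and 5.25 in wild types. Its groups did not overlap either, with a difference of 0.16 (interval -0.01 to 0.33). Hdh4/Q80 replicate 8 was the highest mouse on both. Ednrb, an endothelin receptor that astrocytes as well as endothelial cells carry, read 6.11, 5.86 and 5.89 in Hdh4/Q80 mice against 6.11, 6.15 and 6.16 in wild types, a difference of -0.18 ± 0.0818 (SE). Here replicates 8 and 9 lay below the wild types and replicate 7 within 0.003 of the lowest of them.

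**Figure D3:**
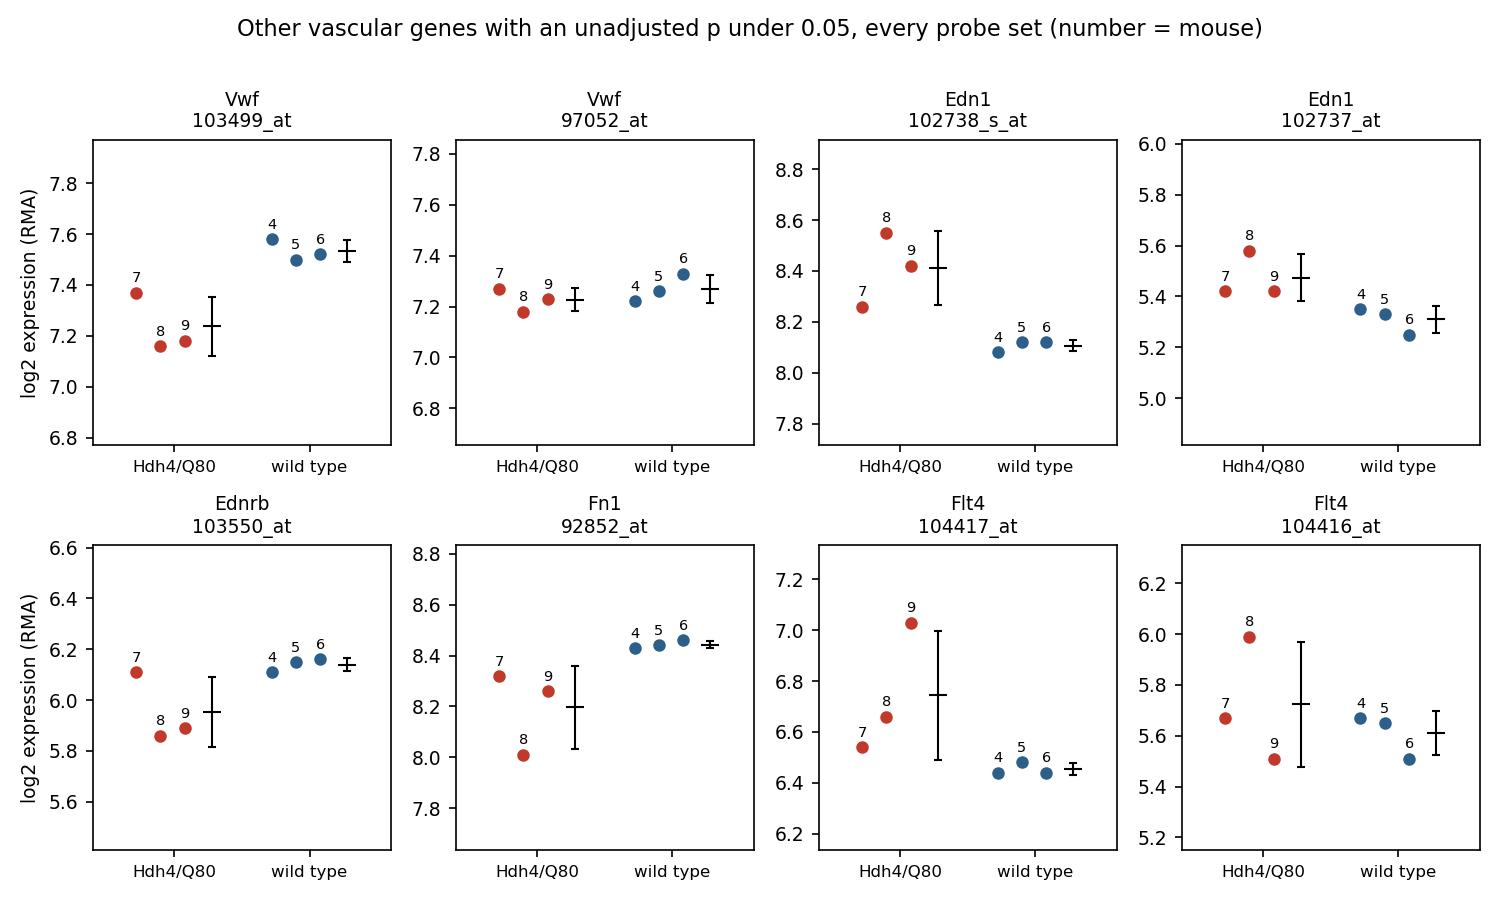
Log2 expression in each mouse (red, Hdh4/Q80; blue, wild type; the number is the replicate) for every probe set of Vwf, Edn1, Ednrb, Fn1 and Flt4, with the group mean and SD (n = 3) in black. Each panel spans 1.2 log2 units; the groups separate on 1 of the 2 Vwf probe sets (by 0.138), both of Edn1 (by 0.138 and 0.063), Fn1 (by 0.11) and the brighter of Flt4 (by 0.057), and overlap on the other panels.

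Fn1, fibronectin of the vessel matrix and plasma, read 8.32, 8.01 and 8.26 in Hdh4/Q80 mice against 8.43, 8.44 and 8.46 in wild types. The mutants lay below by a gap of 0.11, and the difference was -0.25 ± 0.0876 (SE), which ran from -0.31 to -0.15 with 1 mouse left out (-0.15 without Hdh4/Q80 replicate 8). Flt4, VEGF receptor 3, read 6.54, 6.66 and 7.03 in Hdh4/Q80 mice and 6.44, 6.48 and 6.44 in wild types. Hdh4/Q80 replicate 9 stood out on this probe set, and the difference of 0.29 ± 0.115 (SE) became 0.15 without it and 0.39 without Hdh4/Q80 replicate 7. On the dimmer Flt4 probe set replicate 9 was not high (5.51) and the difference was 0.11 (interval -0.14 to 0.37). The adjusted p from limma was 0.857 for both Fn1 and Flt4.

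The barrier list, 14 of 20 genes measured, had 7 genes above 0 and 7 below, with a median difference of 0.019. Its smallest p-values belonged to Slc16a1, a monocarboxylate transporter (-0.16 ± 0.106, SE), Ocln, the tight junction protein occludin (0.10 ± 0.0728), and Bsg, basigin (-0.09 ± 0.0773). Slc16a1 became -0.05 without Hdh4/Q80 replicate 8 and -0.09 without wild-type replicate 6, Ocln 0.06 without Hdh4/Q80 replicate 9, and Bsg -0.06 without Hdh4/Q80 replicate 7 and -0.04 without wild-type replicate 4. Leaving out other mice took Slc16a1 as far as -0.22, Ocln to 0.14 and Bsg to -0.14. Ocln and Slc16a1 lay below the lower quartile of every array. For 9 of the 14 genes the interval lay inside 1.2-fold. The other mural list, 20 of 26 genes measured, had 9 above 0 and 11 below (median -0.004), led by Abcc9, a potassium channel subunit of pericytes (0.11 ± 0.0677), Myh11, smooth muscle myosin (-0.15 ± 0.0916), and Tpm2, a tropomyosin (0.12 ± 0.0800). Abcc9 and Myh11 also lay below the lower quartile of every array, and the Abcc9 probe set is of the _s_at kind. Myh11 became -0.07 without Hdh4/Q80 replicate 9 and -0.10 without wild-type replicate 5, and Tpm2 0.07 without wild-type replicate 4. Leaving out other mice took Myh11 as far as -0.22 and Tpm2 to 0.18. The negative sign shared by Pdgfrb, Acta2 and Tagln was thus not shared by this list as a whole.

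Of 28 other endothelial genes measured 15 were above 0 and 13 below (median 0.006). Of 29 growth ligands and receptors 13 were above 0 and 16 below (median -0.010). Besides Flt4, the genes of smallest p there were Acvrl1, an endothelial receptor of the TGF-beta family (-0.15 ± 0.0741, with 0.03 and -0.14 on its dimmer probe sets), and Tgfbr1 (0.13 ± 0.0672), a dim TGF-beta receptor. All 18 basement membrane genes were measured, 12 above 0 and 6 below (median 0.037), and besides Fn1 the smallest p-values were those of Dag1, dystroglycan (-0.16 ± 0.0767), and Nid2, nidogen 2, on a dim probe set (0.23 ± 0.121). Nid2 was highest in Hdh4/Q80 replicate 8 (3.87, against 3.33 and 3.58 in replicates 7 and 9 and 3.31 to 3.40 in wild types). Its difference became 0.085 without that mouse, 0.36 without Hdh4/Q80 replicate 7 and 0.004 with array weights. That of Dag1 became -0.10 without Hdh4/Q80 replicate 8 and -0.21 without Hdh4/Q80 replicate 7.

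**Figure D4:**
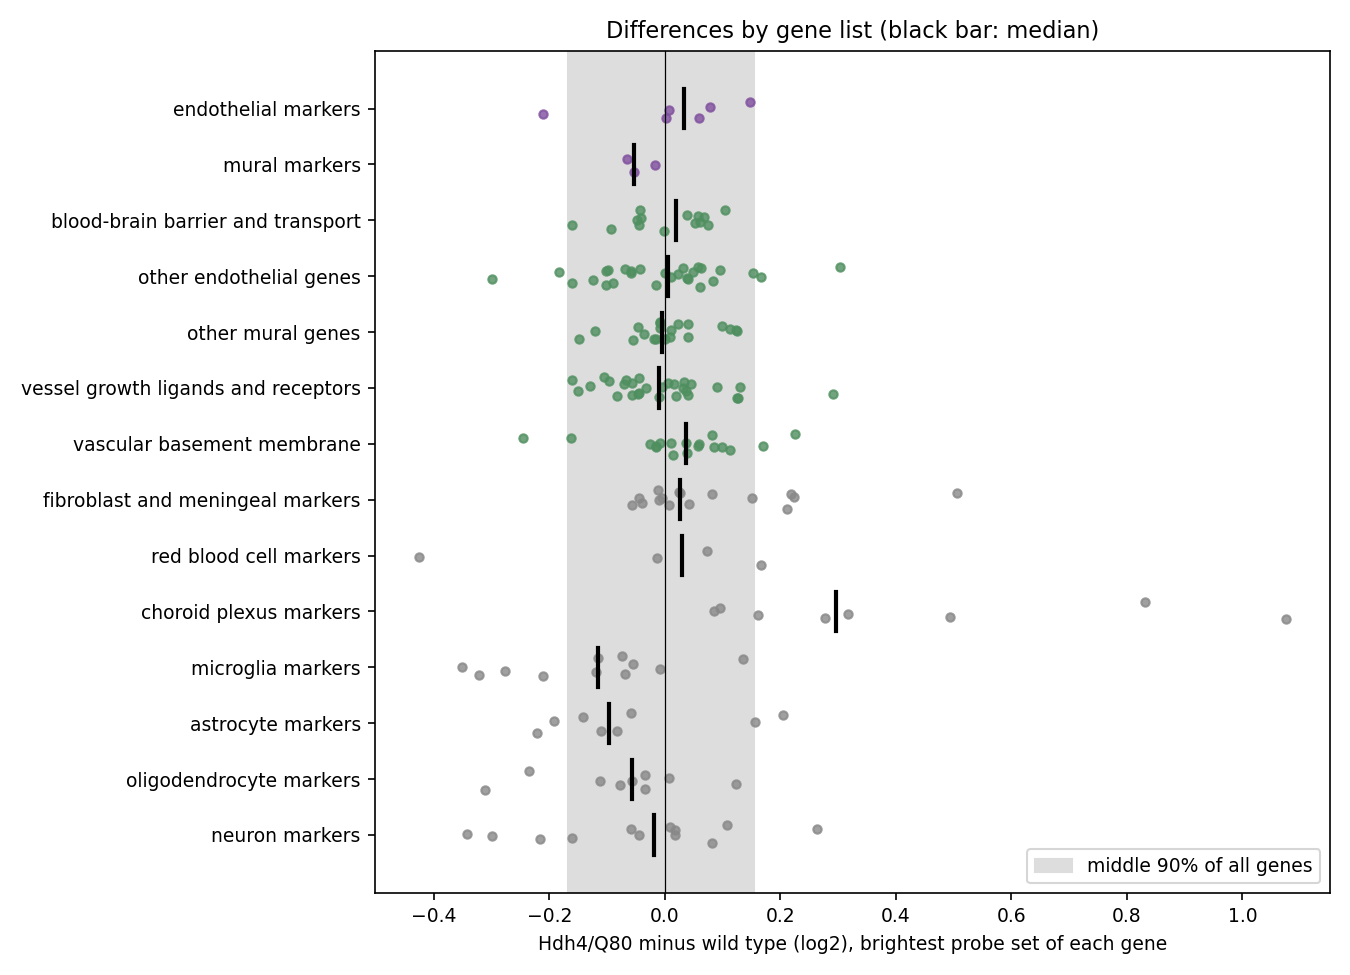
Difference between Hdh4/Q80 and wild-type striatum (log2) for each measured gene on its brightest probe set, by list: vessel markers in purple, further vascular lists in green and other cell types in grey, with the list median as a black bar. The band covers the middle 90% of all genes (-0.17 to 0.15); the vascular medians lie between -0.053 and 0.037 and the choroid plexus median at 0.297.

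Markers of other cells in or beside the dissected tissue had larger differences than the vessel markers in some lists. All 8 measured choroid plexus genes had a difference above 0 (10 of 10 probe sets, median over genes 0.297). Their mean level was 6.73, 7.46 and 7.69 in Hdh4/Q80 replicates 7, 8 and 9, against 6.73, 6.69 and 7.21 in wild-type replicates 4, 5 and 6. Ttr, the transthyretin of choroid plexus epithelium, was high in Hdh4/Q80 replicates 8 and 9 (10.59 and 11.24) and wild-type replicate 6 (10.26), and between 8.32 and 8.48 in the other mice. Choroid plexus has vessels of its own, and its part in the vessel values was not tested.

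Of 4 red blood cell genes measured 2 were above 0 and 2 below. Hba-a1, alpha-globin, was lower in all 3 mutants (11.32, 11.15 and 11.17, against 11.77, 11.63 and 11.52), a difference of -0.43 ± 0.0847 (SE; limma adjusted p = 0.857), while Alas2 of the same list differed by -0.01. Fibroblast and meningeal genes, 16 of 18 measured, had 10 above 0 and 6 below (median 0.025), with Igfbp2 furthest from 0 (0.51 ± 0.316). Of 11 microglial genes 1 was above 0 and 10 below (median -0.115), and the list's mean level was 8.32, 8.14 and 8.28 in Hdh4/Q80 mice against 8.34, 8.37 and 8.44 in wild types. C1qb, a complement subunit, was furthest from 0 there (-0.35), but its dimmer probe set had the opposite sign (0.24). Of 8 astrocyte genes 2 were above 0 and 6 below (median -0.096; Gfap, -0.22). Their mean level was 8.84 in Hdh4/Q80 replicate 8 and 8.99 or above in replicates 7 and 9, against 8.97, 8.99 and 9.03 in wild types, so it was low in replicate 8 alone. Of 9 oligodendrocyte genes 2 were above 0 and 7 below (median -0.057; Mobp, -0.31), with mean levels of 9.14, 9.15 and 9.06 in Hdh4/Q80 mice against 9.17, 9.18 and 9.26 in wild types. The 12 neuron genes had a median of -0.018 (Nefl, -0.34). How far these shifts bear on the vessel values was not tested.

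Genes whose pattern over the 6 mice was most like the mean endothelial deviation were sought among 4810 genes brighter than the array's median probe set. The 5 with the highest Pearson r were Ahcy (r = 0.994), Plekha5 (0.963), Mesp2 (0.960), Myef2 (0.960) and Meis2 (0.959), and 46 genes exceeded 0.9. For the mean mural deviation they were Galnt1 (r = 0.978), Pdia4 (0.969), Gtf2h1 (0.929), Elavl1 (0.927) and Plpp3 (0.915), with 9 genes above 0.9. None of these 10 is on a vessel list used here. With 6 mice and 4810 candidates, the values describe these arrays and carry no test. All 10 genes had wild-type replicate 4 as the highest or second highest mouse, as the vessel profiles did. This follows from picking them by likeness to those profiles and is no separate observation. Of the genes behind the endothelial profile, only Cldn5 was highest in that mouse.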

How the data were processed

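Striatal RNA of 6 mice was isolated with TRIzol, cleaned on columns, biotin-labelled and hybridised to Affymetrix arrays, per the labels' protocols. With 3 mice a group in the design text, an array was counted as a mouse. The authors deposited log2 values per probe set, which they computed by RMA (affy), per the submitters' processing notes. Neither versions nor the set of arrays normalized together is stated. Groups and replicate numbers came from the sample titles, and no batch is labelled. The number of arrays limits the precision.

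Of 12488 probe sets 66 controls were left out. The platform annotation gave 1 symbol for 10833 probe sets, several for 396 and none for 1193, and 8237 of 8251 genes matched the RefSeq gene table by identifier. All 12422 probe sets were fitted by lmFit and eBayes of limma 3.58.1 (R 4.3.3; degrees of freedom 4 residual, 5.81 prior) and adjusted by Benjamini-Hochberg at a threshold of 0.05. The fit was tested on simulated data. Gene lists used the probe set with the highest mean per gene and no set test. Named were all markers, the 3 genes of smallest p and any under 0.05 unadjusted in each vascular list, the gene furthest from 0 in each other list, and the 5 genes most like each marker profile. Alas2 and Drd2 fall outside this rule and were picked after seeing their values. Markers and lists were chosen with earlier results of these data known. Promoter windows came from RefSeq (GRCm38.p6). Alternatives were 3 normalizations (median centring, quantile, cyclic loess), moderation with trend and robust options, weighting of arrays, leaving out the dimmest 40% of probe sets, other choices among the probe sets of a gene, and leaving out each mouse.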

Additional observations from a re-analysis of the deposited data

How the results depend on the processing

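No marker probe set, no gene of the 5 vascular lists and no probe set of the array passed the adjusted test under any alternative run, including array weights and the loss of any 1 mouse, with 0 called throughout. The smallest adjusted p over the array was 0.0873 with array weights, and the count of probe sets with an unadjusted p under 0.05, 634 here, became 1812 with array weights and ran from 251 to 1153 with 1 mouse left out. The array weights were 6.19, 0.228 and 0.405 for Hdh4/Q80 replicates 7, 8 and 9. They were 0.816, 1.16 and 1.85 for wild-type replicates 4, 5 and 6. Values with array weights therefore rest mostly on replicate 7 for the mutants and are not a balanced comparison of 3 mice a group. Among the markers only Cldn5 reached an unadjusted p under 0.05, without Hdh4/Q80 replicate 9 (0.0469, adjusted p = 0.5). With 1 mouse left out the median difference ran from 0.014 to 0.066 for the endothelial probe sets (0.066 without wild-type replicate 4) and from -0.086 (without Hdh4/Q80 replicate 8) to -0.012 (without wild-type replicate 4) for the mural ones, Cldn5 from -0.27 to -0.09 and Pecam1 from 0.04 to 0.21 (0.049 with array weights). Leaving out the dimmest probe sets keeps 6 of the 10 marker probe sets and drops Pdgfrb, Acta2, Kdr and Tek. The mural median was then the value of Tagln alone (-0.017). Signs turned only for values near 0: Tek (-0.036 with array weights, -0.022 after cyclic loess, -0.027 after quantile normalization, and -0.058 to 0.051 with 1 mouse left out), Tagln (0.002 with array weights, -0.04 to 0.012 with 1 mouse left out) and both Flt1 probe sets (-0.02 to 0.018 for the brighter and -0.008 to 0.066 for the dimmer). The 15 named genes of the further vascular lists kept their sign in every alternative that held them. They were named for the smallest p-values on these same arrays, which favours a kept sign, so this is no separate observation. Array weights brought Vwf to -0.178, Edn1 to 0.167, Ednrb to -0.053, Flt4 to 0.121, Fn1 to -0.14 and Nid2 to 0.004. With 1 mouse left out several of these genes moved by over 1.5 times. No paired analysis was run, because the sample titles give no pairing of mice between the groups and littermates cannot be matched from them. The number of arrays and the compression of RMA limit what differences could be seen.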
